A study of Homo sapiens with 6 samples.

Results

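The neuronal and mesenchymal intermediate filament genes NEFL, NEFM, NEFH, INA, PRPH, VIM and NES were followed through messenger RNA sequencing of the human neuroblastoma line SH-SY5Y. The 7 genes were chosen by symbol, were compared as 5 neurofilament type genes against VIM and NES, and were each listed in all 6 libraries, among 32575 genes listed in all. The groups sequenced were CSB knockdown, CSA knockdown and control, with 2 libraries in each. Per the labels' protocols, every group was infected with a lentivirus carrying a short hairpin RNA, was put under puromycin selection and then grown for 2 to 3 weeks, so the control cells also carry a hairpin. The genotype field names the groups CSBmut, CSAmut and WT, whereas the protocol describes hairpins, so the depleted cells are called knockdowns here. CSB is the product of ERCC6 and CSA of ERCC8, proteins of transcription-coupled DNA repair whose loss causes Cockayne syndrome, and the design asks what each depletion changes in the transcripts of a neuronal line. The sources used here do not give the hairpin sequences, or say whether 2 libraries with 1 label trace back to separate infections, so the p-values reflect spread among libraries that may be technical.

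Intermediate filaments are assembled from coiled-coil proteins whose make-up changes as cells differentiate. Neural progenitors and migratory neural crest cells contain nestin and vimentin, and maturing neurons replace these with the neurofilament light, medium and heavy chains, α-internexin and, mainly in peripheral and sympathetic neurons, peripherin. The light chain is the core on which neurofilaments are built, the medium and heavy chains add long phosphorylated tails that set axon calibre, and vimentin is also the main filament of mesenchymal cells. Neuroblastoma lines derive from sympathetic neural crest and can hold both kinds of filament.

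The libraries held 19368272 to 26758162 reads assigned to genes, of which 5.73 to 6.51% came from mitochondrial genes, as a share of scaled counts. Values are scaled counts, that is, reads of a gene divided by 1 size factor per library, and they do not depend on gene length. The targeted gene was lower in the group named after it: ERCC6 had 258 and 302 scaled counts in the CSB knockdown, against 615 and 593 in control, and ERCC8 had 61.8 and 57.2 in the CSA knockdown, against 219 and 217 in control. Of 12 noradrenergic neuroblast markers, 11 had at least 100 scaled counts in every library, the exception being TH with 2.86 to 20.3. Among markers of other cells, SOX10 (glia), PECAM1 (endothelium), CD68 (macrophages), DES and MYF5 (muscle) had no reads in any library. Fibroblast markers were present, 6 of 7 with at least 100 scaled counts in every library.

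The direction of NEFL, NEFM, INA and VIM differed between the knockdowns. PRPH, with 4 to 21 reads a library, rose in both, and NEFH and NES missed the threshold in the CSA knockdown. In the CSB knockdown NEFL, NEFM, NEFH and INA fell and VIM, NES and PRPH rose, while NEFL, NEFM, INA and PRPH rose and VIM fell in the CSA knockdown. NEFL was 0.436 of control in the CSB knockdown and 1.71 times control in the CSA knockdown, and VIM was 2.01 times and 0.560 of control, as ratios of mean scaled counts. Both comparisons use the same control libraries, so the knockdowns were also compared with each other directly. In that comparison NEFL, NEFM, NEFH and INA were lower and VIM and NES higher in CSB knockdown cells.

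Genes were called at a Benjamini-Hochberg adjusted p below 0.05, with limma fitted to log2(scaled count + 1) of all 28388 genes tested, and every log2 fold change (log2 change for short) ± SE and adjusted p below is from that fit. All 7 members passed the filter on low values. In the CSB knockdown versus control 7 of 7 members were called (23.6% of all genes tested), 3 higher (14.8% of all genes) and 4 lower (8.86%). For the CSA knockdown versus control 5 of 7 were called (18.8% of all genes), 4 higher (8.37%) and 1 lower (10.4%). Between CSB knockdown and CSA knockdown 6 of 7 were called (29.4% of all genes), 2 higher (18.1%) and 4 lower (11.3%). The members' median log2 fold changes were -0.53, 0.20 and -0.49 in that order of comparisons, and those of all genes tested were 0.10, 0.00 and 0.09. Called members went both ways in each comparison, so these medians do not describe a common shift of the 7 genes. With TMM scaling before limma the split of all called genes shifted, to 3028 higher and 3244 lower in the CSB knockdown versus control, against 4191 and 2515 as deposited, and to 4052 and 4206 between the knockdowns, against 5128 and 3212. No member changed direction under it.

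**Figure D1:**
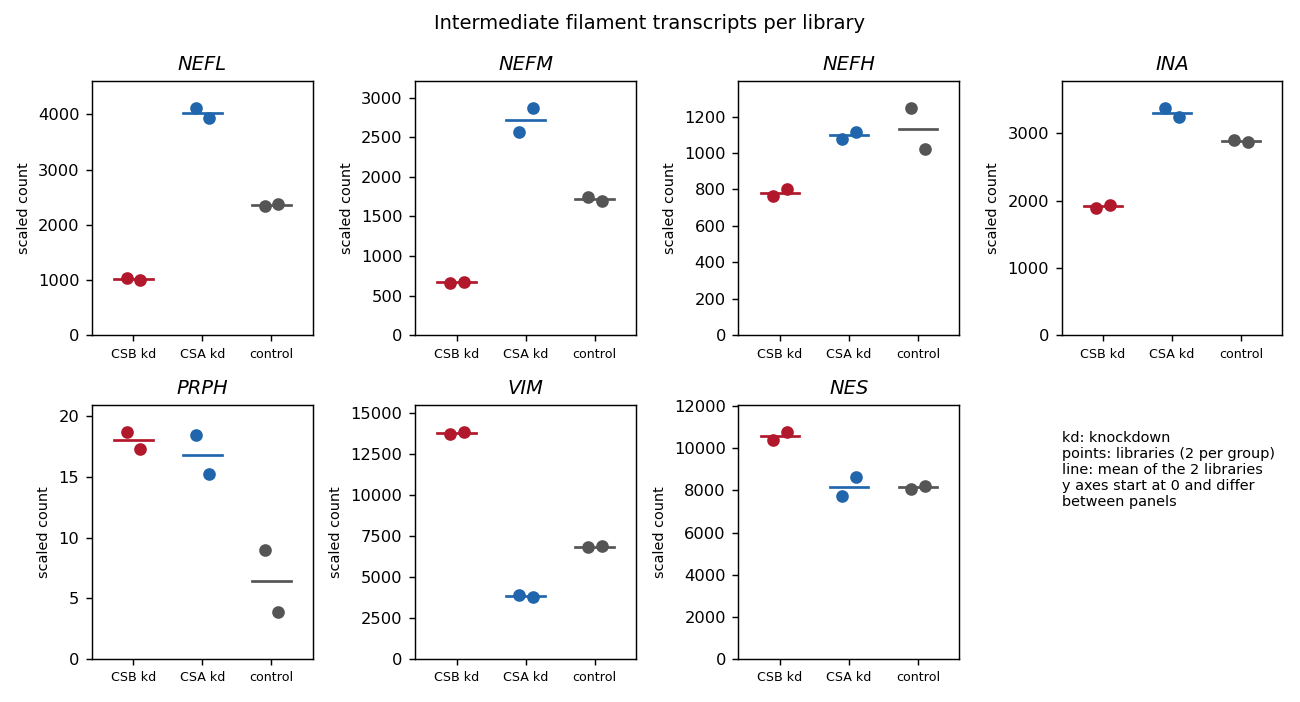
Scaled counts (y axis, linear, from 0, a different scale in each panel) of the 7 filament genes in the CSB knockdown, CSA knockdown and control libraries, with points for libraries and lines for group means. NEFL, NEFM and INA are lowest in the CSB knockdown and highest in the CSA knockdown, and VIM is the other way round, at 13718 and 13855 in the CSB knockdown against 3896 and 3769.8 in the CSA knockdown.

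NEFL encodes the neurofilament light chain and lies on chromosome 8 from 24950955 to 24957110 on the minus strand (positions are those of hg38). Its scaled counts were 1043 and 1007 in the CSB knockdown, 4111 and 3927 in the CSA knockdown, against 2333 and 2373 in control. The 3 groups did not overlap, with the CSB knockdown libraries below both controls and the CSA knockdown libraries above them. The log2 fold change from control was -1.20 ± 0.05 in the CSB knockdown (95% interval -1.31 to -1.09, adjusted p = 3.34e-08), and it was 0.77 ± 0.05 in the CSA knockdown (95% interval 0.66 to 0.88, adjusted p = 8.39e-07). Between the knockdowns it was -1.97 ± 0.05 (adjusted p = 1.25e-10), so NEFL in CSB knockdown cells was 0.255 of its level in CSA knockdown cells.

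NEFM, the medium chain, is the neighbour of NEFL, on the plus strand of chromosome 8 from 24913012 to 24919098. It had 661 and 676 scaled counts in the CSB knockdown, 2561 and 2868 in the CSA knockdown, against 1741 and 1689.9 in control. As for NEFL, no group overlapped another and control lay between the knockdowns. The log2 fold change from control was -1.36 ± 0.06 in the CSB knockdown (adjusted p = 5.62e-08) and 0.66 ± 0.06 in the CSA knockdown (adjusted p = 1.33e-05), and between the knockdowns it was -2.02 ± 0.06 (adjusted p = 4.57e-10). The antisense gene GS1-72M22.1 overlaps NEFM, and since the strand setting of the counting is not given, reads of the pair cannot be told apart. It had 59.5 and 51.2 scaled counts in the CSB knockdown, 107 and 117 in the CSA knockdown, against 96.5 and 90.7 in control, far fewer than NEFM. NEFM per kilobase was 0.626 and 0.663 of NEFL in the CSB knockdown, 0.616 and 0.722 in the CSA knockdown, against 0.737 and 0.704 in control. The CSB knockdown libraries lay below both controls in that ratio, and those of the CSA knockdown lay below and between them.

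NEFH encodes the heavy chain, which joins neurofilaments late in neuronal maturation, and lies on the plus strand of chromosome 22 from 29480230 to 29491390. It had 762 and 800.3 scaled counts in the CSB knockdown, 1078 and 1115 in the CSA knockdown, against 1246 and 1023 in control. The CSB knockdown libraries were the lowest, and those of the CSA knockdown lay between the control libraries. NEFH fell in the CSB knockdown versus control (log2 change -0.53 ± 0.08, adjusted p = 0.000512) and was lower in the CSB than in the CSA knockdown (log2 change -0.49 ± 0.08, adjusted p = 0.000625). Its difference from control in the CSA knockdown missed the threshold (log2 change -0.04 ± 0.08, 95% interval -0.22 to 0.14, adjusted p = 0.788). The call against control ended without CSB knockdown replicate 1 or 2 or CSA knockdown replicate 2 and in the fit of only these 2 groups (adjusted p up to 0.133). The call between the knockdowns ended without any 1 of their 4 libraries (adjusted p up to 0.126).

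INA encodes α-internexin, which forms filaments early in neuronal differentiation and later joins the neurofilament chains, and lies on the plus strand of chromosome 10 from 103277163 to 103290351. Its scaled counts were 1890.4 and 1933 in the CSB knockdown, 3372 and 3245 in the CSA knockdown, against 2907 and 2868 in control. The groups did not overlap and stood in the same order as for NEFL and NEFM. INA fell in the CSB knockdown versus control (log2 change -0.59 ± 0.05, adjusted p = 4.19e-06) and was lower in the CSB than in the CSA knockdown (log2 change -0.79 ± 0.05, adjusted p = 1.49e-07). Its rise in the CSA knockdown was small (log2 change 0.20 ± 0.05, adjusted p = 0.0148). That last call ended in the fit of only those 2 groups and without any 1 library other than CSA knockdown replicate 2 (adjusted p up to 0.147).

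PRPH, which encodes peripherin, lies on the plus strand of chromosome 12 from 49293252 to 49298686 and was close to the detection limit. It had 17 and 21 reads in the CSB knockdown, 17 and 16 in the CSA knockdown, against 9 and 4 in control. As scaled counts these were 18.7 and 17.3 in the CSB knockdown, 18.4 and 15.3 in the CSA knockdown, against 8.95 and 3.86 in control. All 4 knockdown libraries lay above both controls, and the knockdowns overlapped each other. PRPH rose in the CSB knockdown (log2 change 1.45 ± 0.43, adjusted p = 0.0295) and in the CSA knockdown (log2 change 1.35 ± 0.43, adjusted p = 0.0486). The difference between the knockdowns missed the threshold (log2 change 0.10 ± 0.43, 95% interval -0.85 to 1.04, adjusted p = 0.901). Both calls against control ended without any 1 of the 6 libraries (adjusted p up to 0.236 in the CSB and 0.244 in the CSA knockdown). Without control replicate 2 the log2 fold changes were 0.93 in the CSB and 0.84 in the CSA knockdown, and without control replicate 1 they were 1.97 and 1.87. Both also ended after quantile normalization and in fits of only 2 groups, and the call in the CSA knockdown ended without the filter on low values and with a pseudocount of 0.5. With a pseudocount of 10 the values were 0.79 in the CSB and 0.73 in the CSA knockdown, and DESeq2 gave no adjusted p for PRPH against control. The antisense gene RP11-161H23.9, which overlaps PRPH, had 2.89 to 10.7 scaled counts, and its reads cannot be told apart from those of PRPH without strand.

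VIM, which encodes vimentin, lies on the plus strand of chromosome 10 from 17228259 to 17237593. It had 13718 and 13855 scaled counts in the CSB knockdown, 3896 and 3769.8 in the CSA knockdown, against 6826 and 6859 in control. The groups were far apart compared with the difference between libraries of a group, with control between the knockdowns. The log2 fold change from control was 1.01 ± 0.05 in the CSB knockdown (95% interval 0.91 to 1.11, adjusted p = 5.62e-08) and -0.84 ± 0.05 in the CSA knockdown (95% interval -0.94 to -0.74, adjusted p = 1.99e-07). Between the knockdowns it was 1.85 ± 0.05 (adjusted p = 9.68e-11), so VIM in CSB knockdown cells was 3.60 times its level in CSA knockdown cells. The 7 fibroblast markers summed to 14853 to 15604 scaled counts in the CSB knockdown, 8263 to 8540.0 in the CSA knockdown and 12924 to 13229.7 in control, and their part in the result was not tested. Against control, 4 of them (DCN, COL1A1, COL1A2 and PDGFRB) were higher in the CSB knockdown, THY1 was lower (log2 change -0.58 ± 0.05, adjusted p = 9.37e-06), and LUM and COL3A1 missed the threshold. In the CSA knockdown COL1A1, COL3A1, LUM and PDGFRB were lower, and the other 3 missed the threshold. Of all genes tested, 14.8% were higher and 8.86% lower in the CSB knockdown versus control. The shares were 8.37% higher and 10.4% lower in the CSA knockdown versus control. In bulk RNA fewer cells of a type and less RNA per cell cannot be told apart, for VIM or for the other genes here. The antisense gene VIM-AS1 had 0.954 to 7.96 scaled counts.

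NES, which encodes nestin, the filament protein of neural progenitors, lies on chromosome 1 from 156668763 to 156677397, minus strand. It had 10413 and 10781 scaled counts in the CSB knockdown, 7725 and 8629.7 in the CSA knockdown, against 8093 and 8225 in control. The CSB knockdown libraries were above all others, and the CSA knockdown libraries lay on either side of the controls. NES rose in the CSB knockdown versus control (log2 change 0.38 ± 0.06, adjusted p = 0.000421) and was higher in the CSB than in the CSA knockdown (log2 change 0.38 ± 0.06, adjusted p = 0.000275). Its difference from control in the CSA knockdown missed the threshold (log2 change 0.00 ± 0.06, 95% interval -0.12 to 0.13, adjusted p = 1). The call against control ended without either CSB knockdown or either control library (adjusted p up to 0.119), and the call between the knockdowns ended without either CSB knockdown library (adjusted p up to 0.0947). NES thus differed from VIM in the CSA knockdown, where VIM over NES per kilobase was 0.565 and 0.489, against 0.944 and 0.934 in control.

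**Figure D2:**
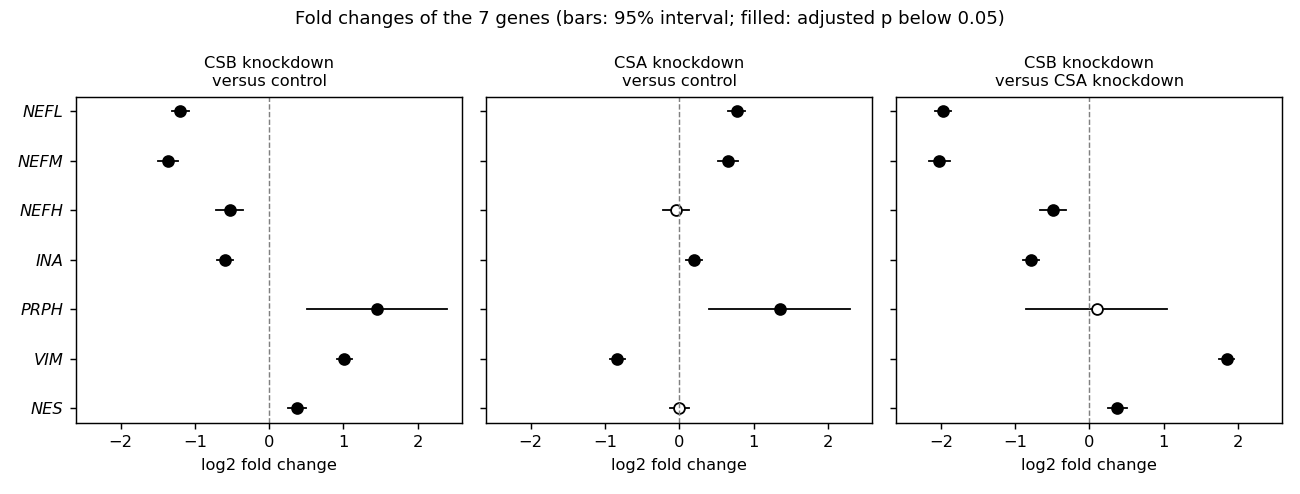
Log2 fold change (x axis) of each filament gene in the 3 comparisons, with 95% intervals as bars and filled points for an adjusted p below 0.05. NEFL, NEFM and INA are left of 0 for the CSB knockdown and right of 0 for the CSA knockdown, VIM is on the opposite sides, and the open points are NEFH and NES in the CSA knockdown versus control and PRPH between the knockdowns.

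The calls of NEFL, NEFM and VIM held under all 17 alternative settings in all 3 comparisons (highest adjusted p = 0.0393, for NEFM in the CSA knockdown). The groups of 2 libraries did not overlap for 7 members in the CSB knockdown versus control (58.7% of all genes tested), 5 in the CSA knockdown versus control (53.5%) and 6 between the knockdowns (60.2%). With 2 libraries a group such separation was thus common among all genes.

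Levels of different genes were compared per kilobase of gene length, as mean scaled counts per kilobase. The order in the CSB knockdown was VIM at 2777, NES at 1907, INA at 592, NEFL at 237, NEFH at 206, NEFM at 153 and PRPH at 4.14. The CSA knockdown had NES at 1471, INA at 1024, NEFL at 928, VIM at 772, NEFM at 620, NEFH at 289.9 and PRPH at 3.87. Control had NES at 1468, VIM at 1378, INA at 894, NEFL at 544, NEFM at 392, NEFH at 299.99 and PRPH at 1.47. In each group, the libraries of genes next to each other in the order did not overlap. VIM stood at the top in the CSB knockdown, below NES, INA and NEFL in the CSA knockdown and just below NES in control. NEFH stood above NEFM in the CSB knockdown, and below it in the CSA knockdown and in control. Among all genes listed, NEFL per kilobase exceeded 86.5% in the CSB knockdown, 97.6% in the CSA knockdown and 95.1% in control.

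The contrast of the neuronal genes with VIM and NES was taken within each library, where it does not depend on the library's size factor. The summed level per kilobase of NEFL, NEFM, NEFH, INA and PRPH over that of VIM and NES was 0.255 and 0.254 in the CSB knockdown, 1.32 and 1.24 in the CSA knockdown, against 0.766 and 0.731 in control. Per kilobase, the sum of the neuronal genes was thus above that of VIM and NES in the CSA knockdown libraries. It was below it in the libraries of the other groups. Without division by gene length, the neuronal sum was below that of VIM and NES in the CSA knockdown libraries as well. NES alone stood above each neuronal gene per kilobase in every group. The difference in mean log2 ratio was -1.56 for the CSB knockdown minus control, 0.77 for the CSA knockdown minus control and -2.33 for the CSB minus the CSA knockdown. NEFL over VIM was 0.0872 and 0.0834 in the CSB knockdown, 1.21 and 1.19 in the CSA knockdown, against 0.392 and 0.397 in control. These ratios were chosen after the directions of the genes were known and are given without a test. The 12 noradrenergic neuroblast markers summed to 121718 to 122209.7 scaled counts in the CSB knockdown, 144239 to 147933 in the CSA knockdown and 129443 to 132905 in control, and their part in the ratios was not tested. Against control, 4 of these markers were higher and 3 lower in the CSB knockdown, where 14.8% of all genes tested were higher and 8.86% lower. In the CSA knockdown 3 were higher and 5 lower, where 8.37% of all genes were higher and 10.4% lower. The markers thus did not move one way. The granin gene CHGA alone had 3566 and 3681 scaled counts in the CSB knockdown, 22906 and 25867 in the CSA knockdown, against 15330.3 and 14469 in control, and its difference between CSB knockdown and control exceeded that of the sum.

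**Figure D3:**
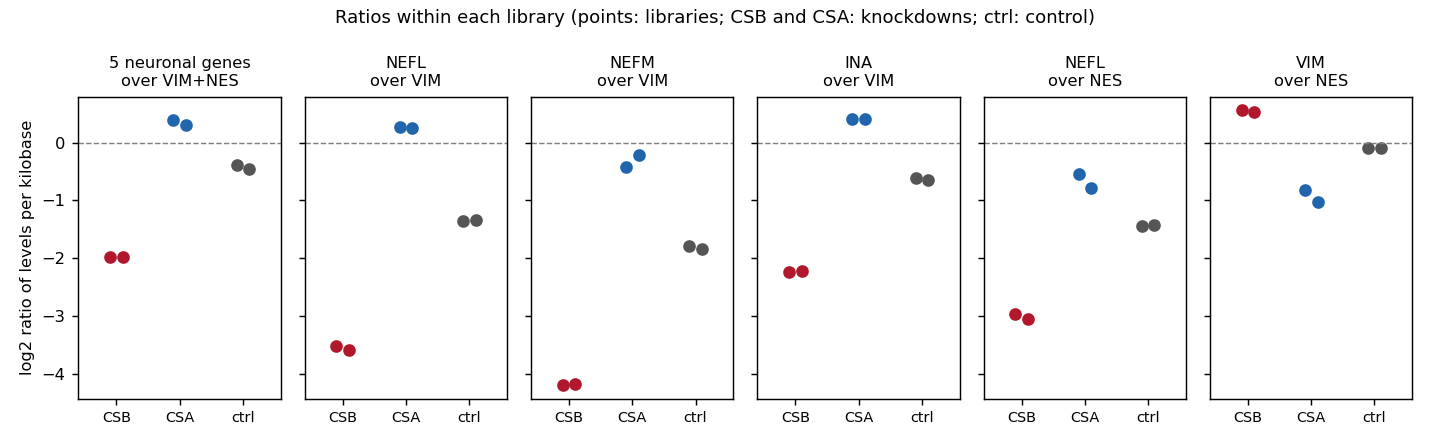
Log2 ratios of levels per kilobase (y axis) within each library of the CSB knockdown, CSA knockdown and control, where 0 is an equal level. For the sum of the 5 neuronal genes over VIM and NES the CSA knockdown libraries are above 0, the control libraries just below and the CSB knockdown libraries near -2, and VIM over NES runs in the opposite order.

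The neuronal filament genes also changed relative to each other. Of the summed level per kilobase of the 5 genes, INA made up 49.5 and 49.8% in the CSB knockdown, 36.4 and 35.1% in the CSA knockdown, against 41.5 and 42.4% in control. NEFL made up 20.4 and 19.4% in the CSB knockdown, 33.1 and 31.7% in the CSA knockdown, against 24.9 and 26.2% in control. INA over NEFL per kilobase was 2.43 and 2.57 in the CSB knockdown, 1.10 and 1.11 in the CSA knockdown, against 1.67 and 1.62 in control. INA thus had its largest share in the CSB knockdown and was nearly level with NEFL per kilobase in the CSA knockdown. NEFH made up 17.0 and 17.6% in the CSB knockdown, 9.94 and 10.3% in the CSA knockdown, against 15.2 and 12.9% in control. NEFH over NEFL per kilobase was 0.836 and 0.909 in the CSB knockdown, 0.300 and 0.325 in the CSA knockdown, against 0.611 and 0.494 in control. In the CSA knockdown the light and medium chains rose while the heavy chain did not pass the test, and in the CSB knockdown the heavy chain fell by less than the light chain. VIM alone made up 47.5 and 47.0% of all 7 genes per kilobase in the CSB knockdown, 15.6 and 14.7% in the CSA knockdown, against 27.5 and 27.9% in control.

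**Figure D4:**
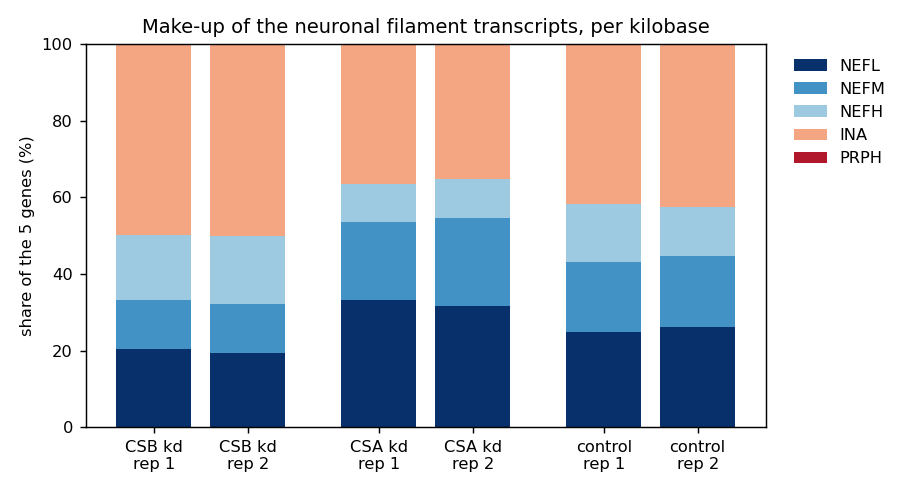
Share of each gene (y axis, %) in the summed level per kilobase of NEFL, NEFM, NEFH, INA and PRPH, 1 bar per library of the CSB knockdown, CSA knockdown and control. The INA part is largest in the CSB knockdown (49.5 and 49.8%) and the NEFL part in the CSA knockdown (33.1 and 31.7%), and PRPH, at most 0.364%, is too small to be seen.

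INA and VIM lie on the same chromosome and moved in opposite directions, and the 250 bases before their starts are shown to let their letters be compared. Sequences and starts are from RefSeq (GRCh38.p14), whose promoter table held 4 of the 7 members (INA, PRPH, VIM and NES). The window of INA is chr10:103276888-103277137 on the plus strand and that of VIM is chr10:17227991-17228240 on the plus strand, both written 5′ to 3′, with capitals for GC boxes, the letters GGGCGG on either strand (CCGCCC when on the other).
INA: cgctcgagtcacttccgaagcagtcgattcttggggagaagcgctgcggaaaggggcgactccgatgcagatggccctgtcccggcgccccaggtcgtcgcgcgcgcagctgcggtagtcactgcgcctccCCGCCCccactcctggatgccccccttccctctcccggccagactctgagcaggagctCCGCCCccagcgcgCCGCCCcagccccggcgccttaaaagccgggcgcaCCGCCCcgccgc
VIM: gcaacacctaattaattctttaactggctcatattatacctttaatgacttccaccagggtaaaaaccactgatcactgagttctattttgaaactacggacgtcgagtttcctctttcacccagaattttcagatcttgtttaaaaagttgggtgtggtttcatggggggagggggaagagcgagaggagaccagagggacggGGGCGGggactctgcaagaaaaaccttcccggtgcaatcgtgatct
The INA window was 72.8% G and C and held 4 GC boxes, whereas that of VIM was 46.0% G and C and held 1. GC boxes, the letters bound by SP1 family factors, were in 42.6% of 35116 RefSeq windows of that length. NES had 2 GC boxes and PRPH had none but held TATAAA, the core promoter element near the start of many genes, found in 10.7% of windows. E-box letters (CANNTG), which 61.8% of windows hold, were in the INA and PRPH windows. Letters searched without a match in these 4 windows were the AP-1 site TGANTCA, present in 6.57% of all windows. The same holds for CCAAT, which 32.0% of windows contain, and for TGACGT, the core of a cyclic AMP response element, which 7.10% contain. Every search covered both strands. A match is a description of letters only. A single start was used per gene, and gene counts do not show which start made most of the RNA.

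Of the other intermediate filament genes on a list of 17, 15 could be tested (DES and BFSP2 could not). Those called by limma went both ways in the CSB knockdown versus control and were all lower in the CSA knockdown. Against control, 3 were higher and 4 lower in the CSB knockdown, where 14.8% of all genes tested were higher and 8.86% lower. The median log2 fold change was -0.01 against 0.10 over all genes tested. edgeR called 3 higher and 5 lower there and DESeq2 0 higher and 5 lower, with 5 higher at an unadjusted p below 0.05 by limma. Of the same list, 0 were higher by limma in the CSA knockdown versus control (1 at an unadjusted p below 0.05, 1 by edgeR and 0 by DESeq2). There 5 were lower, with a median of -0.36 against 0.00, and 8.37% of all genes were higher and 10.4% lower. The 5 were KRT18, SYNM and the lamin genes LMNA (log2 change -0.50 ± 0.05), LMNB2 (-0.36 ± 0.05) and LMNB1 (-0.22 ± 0.06). LMNA and LMNB1 were also among those lower in the CSB knockdown. Between CSB knockdown and CSA knockdown 5 were higher and 2 lower, where 18.1% of all genes were higher and 11.3% lower. SYNM encodes synemin, a partner of vimentin and desmin in mixed filaments, and averaged 904 ± 9.55 scaled counts in the CSB knockdown, 363 ± 33.9 in the CSA knockdown and 735 ± 18.0 in control (SD, n = 2 each). It rose in the CSB knockdown (log2 change 0.30 ± 0.07, adjusted p = 0.0117) and fell in the CSA knockdown (log2 change -1.02 ± 0.07, adjusted p = 1.78e-06). SYNC, which encodes the filament protein syncoilin, averaged 37.1 ± 3.52 in the CSB knockdown, 7.54 ± 1.47 in the CSA knockdown and 15.1 ± 4.52 in control, and rose in the CSB knockdown (log2 change 1.27 ± 0.36, adjusted p = 0.0243).

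Keratins form the filaments of epithelia. KRT19 fell to 27.1 ± 2.16 scaled counts in the CSB knockdown, against 88.6 ± 1.23 in control (SD, n = 2 each; log2 change -1.68 ± 0.18, adjusted p = 3.78e-05), and averaged 78.0 ± 2.99 in the CSA knockdown. KRT80 fell to 31.9 ± 7.80 in the CSB knockdown, against 62.5 ± 16.6 in control (log2 change -0.94 ± 0.25, adjusted p = 0.0152). KRT18, a gene with many near-identical pseudogenes so that its count is uncertain, fell to 24.5 ± 3.65 in the CSA knockdown, against 82.6 ± 11.4 in control (log2 change -1.71 ± 0.19, adjusted p = 5.63e-05). With any 1 library left out, the call of KRT19 in the CSB knockdown and those of KRT18 and SYNM in the CSA knockdown held. The calls of SYNC and KRT80 ended without any 1 library (adjusted p up to 0.195 and 0.258), and that of SYNM in the CSB knockdown without either CSB knockdown or either control library (adjusted p up to 0.204). SYNM in the CSB knockdown also lost its call after TMM scaling and with DESeq2, SYNC with DESeq2, after quantile normalization and in the fit of only 2 groups, and KRT80 in the fit of only 2 groups. The epithelial markers EPCAM and CDH1 together had 42.9 to 44.0 scaled counts in the CSB knockdown, 52.5 to 55.3 in the CSA knockdown and 25.1 to 34.8 in control, and their part in the keratin values was not tested.

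Cytolinkers tie intermediate filaments to actin, microtubules and junctions. Of 7 tested, 2 were higher and 0 lower in the CSB knockdown versus control (1 lower at an unadjusted p below 0.05, 1 by edgeR and 0 by DESeq2), where 23.6% of all genes were called. The CSA knockdown versus control had 0 higher by limma, at an unadjusted p below 0.05, by edgeR and by DESeq2, and 2 lower, where 18.8% of all genes were called. Both shares of the 7 are near those of all genes. Between CSB knockdown and CSA knockdown 3 were higher and 0 lower, where 29.4% of all genes were called. Also 0 were lower at an unadjusted p below 0.05 and by the count models. MACF1, which crosslinks actin and microtubules, averaged 7160.3 ± 496 scaled counts in the CSB knockdown, 5261 ± 80.2 in the CSA knockdown and 6141 ± 77.8 in control (SD, n = 2 each). Its log2 fold change was 0.22 ± 0.05 in the CSB knockdown (adjusted p = 0.0108) and -0.22 ± 0.05 in the CSA knockdown (adjusted p = 0.0124). PLEC, which encodes plectin, rose in the CSB knockdown (log2 change 0.26 ± 0.07, adjusted p = 0.0131). EPPK1, which encodes epiplakin, averaged 38.0 ± 2.31 scaled counts in the CSB knockdown, 2.99 ± 1.16 in the CSA knockdown and 68.1 ± 0.601 in control, and fell in the CSA knockdown (adjusted p = 2.99e-06). That last call held with any 1 library left out. The call of PLEC ended without any 1 library (adjusted p up to 0.303), that of MACF1 in the CSB knockdown without any 1 other than CSB knockdown replicate 1 (0.191) and in the CSA knockdown without either CSA knockdown or either control library (0.222). After TMM scaling and in the fit of only 2 groups the calls of PLEC and MACF1 in the CSB knockdown also ended, MACF1 lost its call in both knockdowns after quantile normalization, and with DESeq2 it lost that in the CSB knockdown.

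All 16 genes on a list of neurofilament transport, phosphorylation and turnover were tested. Against control, 5 were higher and 4 lower in the CSB knockdown, where 14.8% of all genes tested were higher and 8.86% lower. In the CSA knockdown versus control 7 were higher and 3 lower, where 8.37% of all genes were higher and 10.4% lower. Between CSB knockdown and CSA knockdown 4 were higher and 6 lower, where 18.1% of all genes were higher and 11.3% lower. The medians of the log2 fold change were -0.03, 0.16 and -0.04 in that order, against 0.10, 0.00 and 0.09 over all genes. KIF5C, a neuronal kinesin heavy chain that carries cargo along axons, averaged 3979.7 ± 11.4 scaled counts in the CSB knockdown, 8474 ± 179 in the CSA knockdown and 5827 ± 62.0 in control (SD, n = 2 each). It moved as NEFL did, with a log2 fold change of -0.55 ± 0.05 in the CSB knockdown (adjusted p = 4.69e-06) and 0.54 ± 0.05 in the CSA knockdown (adjusted p = 6.15e-06). KIF5A, the kinesin heavy chain closest to neurofilament transport in mice, did not follow that pattern. It averaged 1467 ± 13.5 in the CSB knockdown, 1645 ± 173 in the CSA knockdown and 1204 ± 17.5 in control, and was higher than control in the CSB knockdown (log2 change 0.29 ± 0.07, adjusted p = 0.00915) and in the CSA knockdown (log2 change 0.45 ± 0.07, adjusted p = 0.000578).

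The dynein intermediate chain DYNC1I1 moved the other way from KIF5C. It averaged 264 ± 29.2 scaled counts in the CSB knockdown, 49.6 ± 18.8 in the CSA knockdown and 104 ± 6.74 in control (SD, n = 2 each), with a log2 fold change of 1.33 ± 0.21 in the CSB knockdown (adjusted p = 0.00064) and -1.11 ± 0.21 in the CSA knockdown (adjusted p = 0.00282). Among kinases that phosphorylate neurofilament tails, GSK3B rose in the CSB knockdown (log2 change 0.31 ± 0.05, adjusted p = 0.000701) and MAPK3 fell in it (log2 change -0.62 ± 0.06, adjusted p = 9.68e-06). In the CSA knockdown MAPK3 rose (log2 change 0.30 ± 0.06, adjusted p = 0.00253) and GSK3B missed the threshold. TRIM2 encodes a ubiquitin ligase that binds the light chain in mice. It averaged 1593 ± 117 in the CSB knockdown, 1172 ± 1.96 in the CSA knockdown and 2091 ± 66.1 in control. It fell in the CSB knockdown (log2 change -0.39 ± 0.06, adjusted p = 0.000496) and in the CSA knockdown (log2 change -0.83 ± 0.06, adjusted p = 1.74e-06). With any 1 library left out the calls of KIF5C in both knockdowns, MAPK3 in the CSB and TRIM2 in the CSA knockdown held. Those of GSK3B and of DYNC1I1 in the CSB knockdown ended without either CSB knockdown or either control library (adjusted p up to 0.0796 and 0.181), and those of KIF5A in both knockdowns without any 1 of the same libraries (0.242 in the CSB and 0.115 in the CSA knockdown). KIF5A also lost its call in the CSB knockdown with DESeq2 and after TMM scaling, and in the CSA knockdown in the fit of only 2 groups. MAPK3 in the CSA knockdown lost its call without CSB knockdown replicate 2 or either control library. TRIM2 in the CSB knockdown lost its call without CSB knockdown replicate 1 or either control library. DYNC1I1 in the CSA knockdown lost its call in the fit of only 2 groups and without any 1 library other than CSA knockdown replicate 1 (0.192), and its log2 fold change was -0.72 without CSA knockdown replicate 2.

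Transcription factors known to act on filament gene promoters or enhancers numbered 14, all tested. Against control, 8 were higher and 2 lower in the CSB knockdown, where 14.8% of all genes tested were higher and 8.86% lower. The median log2 fold change was 0.31 against 0.10 over all genes. Against control, 10 were lower in the CSA knockdown and 0 higher, where 10.4% of all genes were lower and 8.37% higher. Also 0 were higher at an unadjusted p below 0.05, by edgeR and by DESeq2, and the median was -0.33 against 0.00. Between CSB knockdown and CSA knockdown 11 were higher and 0 lower by limma, where 18.1% of all genes were higher and 11.3% lower. edgeR called 11 higher and DESeq2 9, and 0 were lower by either (1 lower at an unadjusted p below 0.05 by limma). SNAI2, a factor of neural crest migration, averaged 1027 ± 24.8 scaled counts in the CSB knockdown, 160 ± 33.1 in the CSA knockdown and 379.7 ± 20.01 in control (SD, n = 2 each). The log2 fold change of SNAI2 was 1.43 ± 0.12 in the CSB knockdown (adjusted p = 3.54e-06) and -1.26 ± 0.12 in the CSA knockdown (adjusted p = 1.1e-05). FOSL1, an AP-1 subunit, averaged 124 ± 12.2 in the CSB knockdown, 15.6 ± 3.62 in the CSA knockdown and 51.5 ± 10.1 in control, with log2 fold changes of 1.26 ± 0.24 (adjusted p = 0.00211) in the CSB and -1.67 ± 0.24 (adjusted p = 0.000359) in the CSA knockdown. Both stood in the same order of groups as VIM.

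The other factors called higher in the CSB knockdown were TWIST1, SOX4, SOX11, JUN, ISL1 and REST. The log2 change there was 0.95 ± 0.06 for SOX4 and 0.66 ± 0.05 for SOX11. It was 0.37 ± 0.06 for ISL1 and 0.26 ± 0.07 for REST. In the CSA knockdown SOX4, SOX11, ISL1 and REST were called lower, and TWIST1 and JUN missed the threshold. REST changed by -0.71 ± 0.07 in it (adjusted p = 1.65e-05). The factors that fell in the CSB knockdown were the POU domain proteins POU4F2 and POU3F2. POU4F2 averaged 267 ± 20.7 scaled counts in the CSB knockdown, 176 ± 25.7 in the CSA knockdown and 389.7 ± 8.17 in control (SD, n = 2 each), a log2 fold change of -0.55 ± 0.11 in the CSB knockdown (adjusted p = 0.00308). POU3F2 averaged 332 ± 14.6 in the CSB knockdown, 306 ± 24.0 in the CSA knockdown and 398 ± 7.996 in control, a log2 fold change of -0.26 ± 0.09 in the CSB knockdown (adjusted p = 0.0468). Unlike NEFL, NEFM and INA, both were lower than control in the CSA knockdown as well (log2 changes of -1.15 ± 0.11 for POU4F2, adjusted p = 1.51e-05, and -0.38 ± 0.09 for POU3F2, adjusted p = 0.00831). With 1 library left out the calls of SNAI2 ended in the CSB knockdown without either of its own libraries (adjusted p up to 0.0572) and in the CSA knockdown without CSB knockdown replicate 2 or control replicate 1 (0.0596). Those of FOSL1 and POU4F2 in the CSB knockdown ended without either CSB knockdown or either control library (0.151 and 0.164), FOSL1 in the CSA knockdown without either CSB knockdown library or control replicate 1 and in the fit of only 2 groups (0.0776), and POU3F2 in the CSB knockdown without any 1 library other than CSA knockdown replicate 1 and without the filter on low values (0.258). In the CSA knockdown the call of POU4F2 held with any 1 library left out, and that of POU3F2 ended without any 1 other than CSA knockdown replicate 2 and in the fit of only 2 groups (0.146).

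For each member the 3 genes of nearest pattern were found among 12077 genes with a mean of at least 100 scaled counts, by the root mean square difference of log2(scaled count + 1) over the 6 libraries, each gene centred on its own mean. With 3 groups, a small difference says only that the group levels are alike. NEFL was nearest to AK7 (0.0698), an adenylate kinase, CYB561 (0.0954), a cytochrome of secretory granules, and AK4 (0.102), and NEFM to CYB561 (0.0666), DACH1 (0.120) and AK7 (0.128). CYB561 averaged 1558 scaled counts in the CSB knockdown, 6898 in the CSA knockdown and 4062 in control. NEFH was nearest to SP2-AS1 (0.0579), an antisense gene whose count is uncertain without strand, GLB1L2 (0.0625) and TOX2 (0.0630). INA was nearest to SREBF2 (0.0103), a regulator of cholesterol synthesis, FAM101B (0.0169) and the signalling adaptor GRB2 (0.0216). SREBF2 had 1760.5 and 1777 scaled counts in the CSB knockdown, 3069 and 2989.7 in the CSA knockdown, against 2692 and 2635 in control, the same order of groups as INA. VIM was nearest to C7 (0.0430), a complement component, the small GTPase RHOB (0.0585) and LDLRAD4 (0.0601). C7 averaged 12355 scaled counts in the CSB knockdown, 3244 in the CSA knockdown and 6165 in control. NES was nearest to GARNL3 (0.0200), the deubiquitinase USP11 (0.0241) and the corepressor subunit SIN3B (0.0245). The nearest genes to PRPH were AJAP1 (0.253), TRIM67 (0.327) and KIAA1683 (0.351). They were farther from it than the nearest genes of the other members were from theirs. PRPH had 4 to 21 reads a library, so its distances include more counting error and do not show a distinct pattern.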

How the data were processed

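Gene values of 6 libraries (TruSeq RNA kit, paired-end) were used as deposited. Reads were checked with FastQC and aligned to hg38 with HISAT2 2.0.4, per the submitters' processing notes. The sources used here do not give how they were counted, with which annotation release and strand setting, or how the values were normalized. The deposited signal is headed FPKM per the file headers, but 100% of values in every library were whole multiples of the smallest one (tolerance 0.01 of that step), so it is gene read counts divided by 1 size factor per library. A gene without an entry in a library was taken as 0, and reads were recovered by dividing by the step. The plan had edgeR for raw counts and limma for normalized values. The values were normalized, so limma was kept and count models on recovered reads were alternatives.

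A gene was tested if its mean reached 1 in any group (28388 genes). The fit was by limma 3.58.1 in R 4.3.3 on log2(scaled count + 1), using its trended prior, with 3 groups in 1 fit and 3 residual degrees of freedom, and p-values were Benjamini-Hochberg adjusted over all genes tested. The pseudocount makes fold changes of low genes smaller than their ratios of levels. The script was checked on simulated data. Replicates of a group differed by more than counting error (chi-square per degree of freedom 2.66 in the CSB knockdown, 5.06 in the CSA knockdown and 1.95 in control), so none was taken as a duplicate. Alternatives were edgeR 4.0.16, DESeq2 1.42.0, other scalings, filters and pseudocounts, a replicate block and leaving out each library. The members, lists and ratios were chosen with earlier results of these data known. Named were the 7 members, ERCC8 and ERCC6, up to 2 largest called rises and falls of each list per comparison with control, and the 3 nearest genes of each member. Markers were planned as levels only, and calls of the fibroblast and noradrenergic neuroblast markers against control were added to the plan. The overlapping antisense genes were added because they share positions with members. Lamin genes and further called transcription factors were also named, without alternative fits.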

Additional observations from a re-analysis of the deposited data

How the results depend on the processing

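Over 355 values of the 7 members under the alternatives, 317 stayed on the same side of the threshold, 38 lost their call and no called value changed sign. Of differences that were not called, 5 values changed sign, 1 of NEFH and 2 of NES in the CSA knockdown versus control and 2 of PRPH between the knockdowns. In the fit of only the CSA knockdown and control 3 members and 2460 genes were called, against 5 and 5334 in the fit of all groups. With 1 library left out, between 4 and 6 members were called in the CSB knockdown versus control, 3 and 4 in the CSA knockdown versus control, and 4 and 6 between the knockdowns. Over all genes the counts were 1773 (without CSB knockdown replicate 1) to 5961 in the CSB knockdown versus control, 1126 (without control replicate 1) to 3306 in the CSA knockdown versus control, and 4384 (without CSB knockdown replicate 1) to 6223 between the knockdowns. A fit with 1 library left out has fewer residual degrees of freedom and assumes that the lone library varies like the other groups. Same-numbered libraries did not deviate together (correlations of -0.03, -0.03 and -0.04 over 13397 genes). These correlations cannot tell whether such libraries were prepared together, so whether the numbers pair the samples is not known. With the replicate block 7, 5 and 6 members and 6575, 5259 and 8258 genes were called in the CSB knockdown versus control, the CSA knockdown versus control and between the knockdowns, and no member's call changed, while POU3F2 lost its call in the CSB knockdown. The split of all genes between higher and lower moved with the scaling. It was 3644 and 3624 with edgeR and TMM, 2195 and 2869 with DESeq2 and 2899 and 3003 after quantile normalization in the CSB knockdown versus control, and 4368 and 4563, 3132 and 3360, and 3862 and 4041 between the knockdowns. The ratios of neuronal genes to VIM and NES are taken within a library and do not change with a size factor, and they were not computed after quantile normalization. Depth limits PRPH, with 4 to 21 reads a library, and no other member. The calls of NEFH and NES in the CSB knockdown and of INA in the CSA knockdown rest on 2 libraries a group and ended with some libraries left out.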

Other observations

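NEFL and NEFM are 31856 bases apart, and 7 further genes listed within 500000 bases of the pair could be tested. In the CSB knockdown versus control 1 of the 7 was higher and 1 lower, near the 23.6% called over all genes tested. In the CSA knockdown versus control 1 was lower and the other 6 missed the threshold by limma, where 18.8% of all genes were called. Between CSB knockdown and CSA knockdown 3 were higher (KCTD9, GNRH1 and DOCK5) and 1 was lower (GS1-72M22.1), with 29.4% of all genes called. GNRH1 had a log2 change of 0.79 ± 0.23 in that comparison (adjusted p = 0.0195). DOCK5, a guanine nucleotide exchange factor gene, averaged 290.1 scaled counts in the CSB knockdown, 173 in the CSA knockdown and 215 in control. Its direction was opposite to that of NEFL in both knockdowns, with a log2 fold change of 0.43 ± 0.10 in the CSB knockdown (adjusted p = 0.0064) and -0.31 ± 0.10 in the CSA knockdown (adjusted p = 0.0462). KCTD9 averaged 606 in the CSB knockdown, 461 in the CSA knockdown and 533 in control, and differed between the knockdowns (log2 change 0.39 ± 0.07, adjusted p = 0.000926) but did not pass the test against control. GS1-72M22.1, which overlaps NEFM, was the gene that fell in the CSB knockdown (log2 change -0.75 ± 0.16, adjusted p = 0.00412), and its reads cannot be told apart from those of NEFM without strand. These neighbours were chosen by position, after the values of NEFL and NEFM were known.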
